A study of Mus musculus with 6 samples.

Results

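Mouse embryonic fibroblasts taken late in a serial passage, at population doubling (PD) 14, were compared with the same kind of cells near its start, at PD2. A population doubling is one round of growth that doubles the cell number. The genes compared were those with at least 1 TPM (a transcript level scaled for transcript length and to a common sum per library) in 2 or more of the 4 libraries. They numbered 13031 of the 21988 genes in the table, 59.3%. All cells came from C57BL/6 embryos and were grown in serum-containing medium, with no added agent, genotype or transgene named in the labels. PD2 and PD14 each had 2 libraries: an rRNA-depleted, strand-specific one (replicate 1) and a poly(A)-enriched one (replicate 2). Replicate number and library method were thus one thing, and the labels do not say that the libraries came from separate cultures. Of the genes compared, 11798 reached 1 TPM in all 4 libraries, 123 only in the 2 at PD14 and 94 only in the 2 at PD2. The 2 libraries at PD8 entered the fit only through its estimate of the spread.

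Primary mouse fibroblasts stop dividing after a limited number of passages and enter senescence. This stable arrest comes with an enlarged, secretory cell that releases cytokines, proteases, growth factors and matrix, the senescence-associated secretory phenotype. Dividing cells, in contrast, must double their DNA, ribosomes and membranes in each cycle, so genes for chromosome segregation, nucleotide supply, ribosome assembly and lipid synthesis are active in them.

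The cells carried fibroblast transcripts at both ages. All 15 fibroblast markers were among the genes compared, with Col1a1, a chain of type I collagen, at 5526 and 3068 TPM at PD2 and 7460.0 and 3582 TPM at PD14 (rRNA-depleted, then poly(A)). Markers of other cell types were present at differing levels. Their sums, here and below, include markers that did not reach the filter. Of the blood-cell markers, 0 of 11 erythroid genes reached the filter. Macrophage and leukocyte markers (17 of 20 among the genes compared, none called) summed from 174 TPM at PD2 to 49.1 TPM at PD14 after rRNA depletion and from 448 to 736 TPM after poly(A) enrichment, so the direction differed between methods. Epithelial markers (4 of 12) summed from 23.8 TPM at PD2 to 6.19 TPM at PD14 after rRNA depletion and from 43.7 to 2.75 TPM after poly(A) enrichment, with Esrp1 at 0 in all 6 libraries. Skeletal and cardiac muscle markers (9 of 19) summed from 67.9 TPM at PD2 to 18.9 TPM at PD14 after rRNA depletion and from 149.5 to 27.5 TPM after poly(A) enrichment, with Myf5 at 0 throughout. Endothelial markers (5 of 12) summed from 30.7 TPM at PD2 to 26.4 TPM at PD14 after rRNA depletion and from 22.8 to 15.3 TPM after poly(A) enrichment, with Tie1 and Cldn5 at 0. In bulk RNA, fewer cells of a type and less RNA per cell cannot be told apart.

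More genes were higher than lower at PD14. With limma on log2(TPM + 1), library method as a block and Benjamini-Hochberg adjustment, 854 genes (6.55% of those compared) were called higher and 636 (4.88%) lower at an adjusted p of at most 0.05, 1490 (11.4%) in all. Quantile normalization turned this balance to 736 higher and 834 lower. The genes called higher, chosen for their change, took 4.48% of all listed TPM at PD2 and 12.1% at PD14 after rRNA depletion, and 3.36% and 10.2% after poly(A) enrichment. Those called lower went from 7.81% to 3.81% and from 9.34% to 4.39%. Among the higher genes, 150 had a fitted log2 change of 2 or more and 10 of 4 or more. Among the lower genes, 39 had a change of -2 or less and 0 reached -4.

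Library methods gave the same direction for most genes. Changes were positive in both methods for 5035 genes (38.6%), negative in both for 4074 (31.3%) and opposite for 3907 (30.0%). None of the called genes had opposite signs, which the fit favours, because it counts disagreement between the methods as spread. Across genes, which are not independent replicates, the changes by the 2 methods had a Pearson correlation of 0.53. A log2 change of at least 1 in both methods was found for 502 higher (3.85%) and 339 lower genes (2.6%), 841 (6.45%) in all. Both PD14 libraries lay above both PD2 libraries for 2908 genes (22.3%) and below them for 2095 (16.1%), so that 5003 (38.4%) did not overlap. PD8 lay between PD2 and PD14 in both methods for 709 of the 854 higher and 562 of the 636 lower calls. The calls themselves depended on how the spread was estimated: from the 4 PD2 and PD14 libraries alone, with 1 residual degree of freedom, limma called 18 genes higher and 2 lower at the same fitted changes. Without the rRNA-depleted PD14 library it called 0 in either direction, with 1812 and 1613 genes at an unadjusted p of at most 0.05. Without the poly(A) PD14 library it called 3 higher and 2 lower. Calls below therefore describe these libraries, and levels in all 4 are given for the genes described in full.

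**Figure D1:**
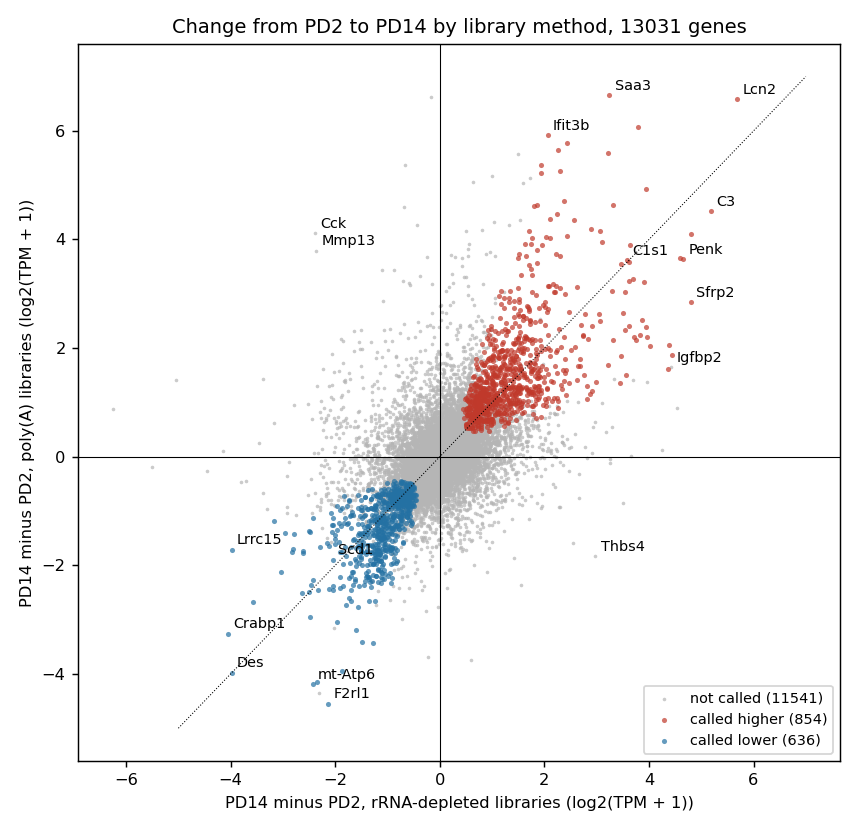
Change in log2(TPM + 1) from PD2 to PD14 for each of the 13031 genes, in the rRNA-depleted libraries (x axis) and the poly(A) libraries (y axis). Red points are the 854 genes called higher and blue points the 636 called lower; all of them sit in the quadrants where both methods have the same sign, and the dotted line marks equal changes.

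The 20 genes called from the 4 libraries alone were, in the higher direction, the complement genes C1s1, C1ra, C1rb, C3 and Serping1, the acute-phase and iron genes Lcn2 and Steap4, and Islr, Penk, Plpp3, Rspo2, 1500015O10Rik, Gas6, Rarres1, Gdpd2, Ifi27, Gpm6b and Prelp. Des and Crabp1 were the 2 lower genes. Lcn2 encodes lipocalin 2, which withholds iron from bacteria. It went from 6.97 TPM at PD2 to 407 TPM at PD14 after rRNA depletion and from 0.88 to 179 TPM after poly(A) enrichment (fitted log2 change 6.13 ± 0.36, adjusted p = 0.0125), with both PD14 libraries far above both PD2 libraries. The ± is the standard error of the fitted change, with n = 2 libraries per group. Plpp3, a phosphatase of bioactive lipids, rose from 92.1 to 769 TPM by rRNA depletion and 44.8 to 283 TPM by poly(A) (fitted log2 change 2.84 ± 0.16, adjusted p = 0.0125). Gdpd2, a glycerophosphodiester phosphodiesterase, was near the filter at PD2 and rose from 2.1 to 37.2 TPM by rRNA depletion and 1.42 to 28.2 TPM by poly(A). Islr, a leucine-rich immunoglobulin-domain protein of mesenchymal cells, rose from 33.3 to 424 TPM by rRNA depletion and 7.68 to 129 TPM by poly(A); its exons overlap those of Islr2 on the same strand, so part of its signal is uncertain. Gas6 is the ligand of the TAM receptor kinases, and rose from 188 to 1295 TPM by rRNA depletion and 231 to 1418 TPM by poly(A) (fitted log2 change 2.7 ± 0.18, adjusted p = 0.0125). In each of these genes the PD2 and PD14 levels did not overlap.

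**Figure D2:**
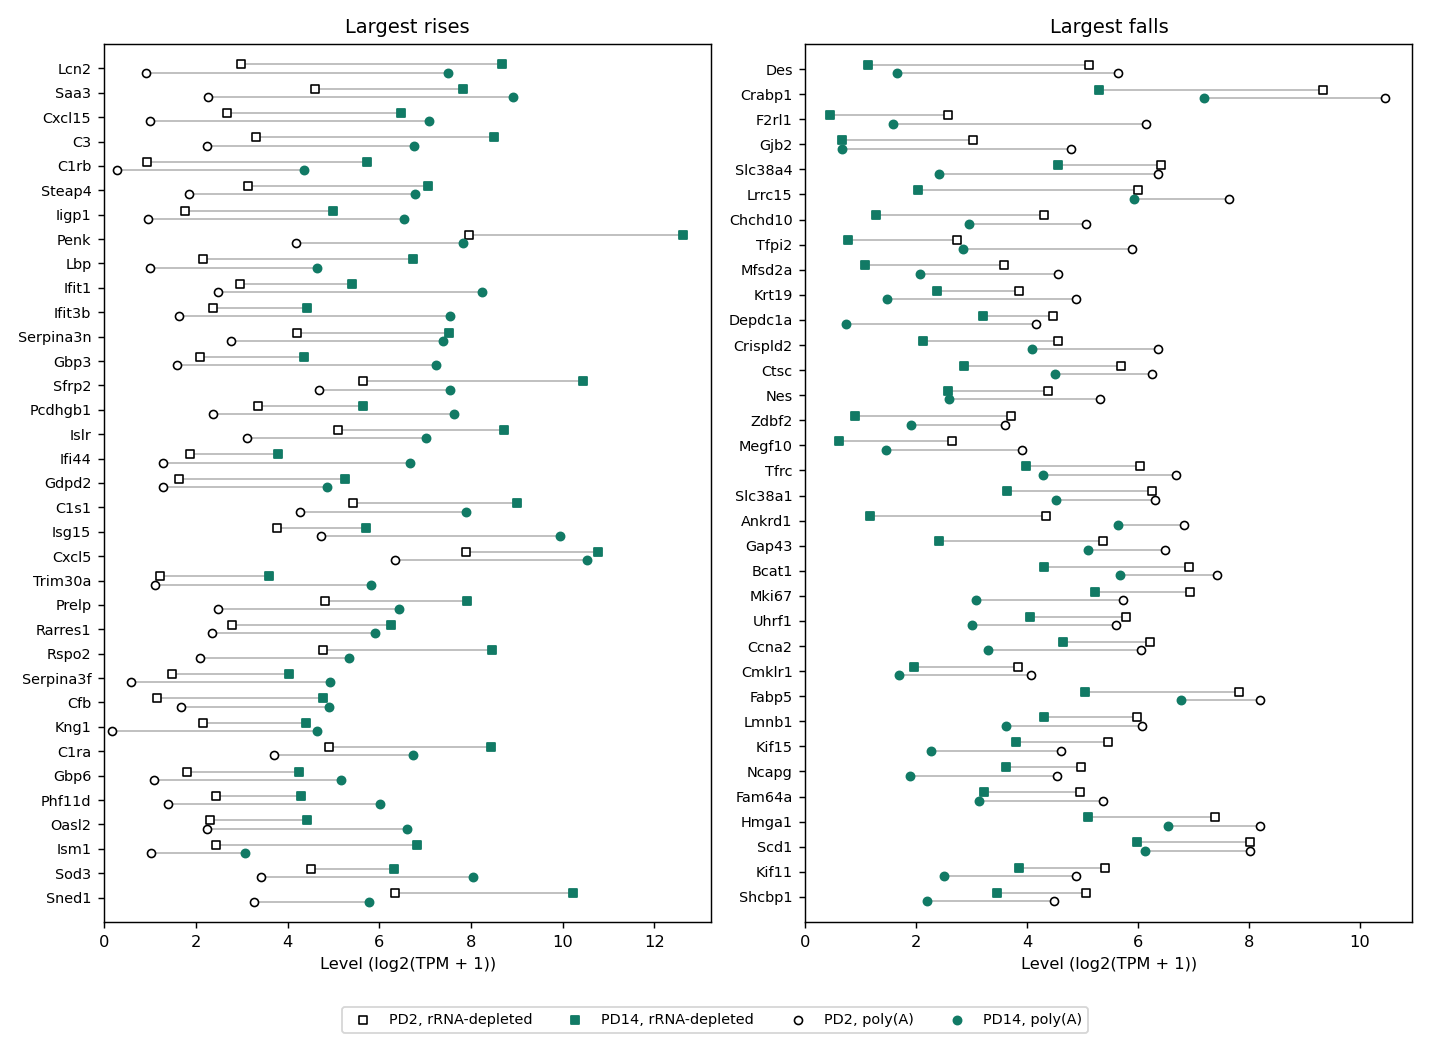
Levels of the 35 largest called rises (left) and 34 of the 35 largest called falls (right) as log2(TPM + 1) at PD2 (open) and PD14 (filled), squares for rRNA-depleted and circles for poly(A) libraries. Lcn2, at the top left, has PD2 levels of 6.97 and 0.88 TPM and PD14 levels of 407 and 179 TPM.

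Many complement genes rose at PD14, and none was called lower. Complement is a cascade of blood proteases that marks and lyses microbes; C1r and C1s start its classical arm, C3 is its central component, and factor B drives the alternative arm. A list of complement genes without the C1q chains had 23 genes compared. Of these, 13 were called higher (56.5%) and 0 lower, beside 6.55% and 4.88% of all genes. In both methods 18 of the 23 were positive, a larger share than the 38.6% of all genes. The median change of the 23 was 1.61 by rRNA depletion and 2.0 by poly(A) enrichment, beside 0.05 for all genes in each method. The summed level of all 29 listed genes, 6 of them below the filter, went from 593 TPM at PD2 to 2876 TPM at PD14 after rRNA depletion and from 563 to 1365 TPM after poly(A) enrichment.

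Proteases of the classical arm were among the rises. C1s1 had the smallest adjusted p of all genes, 0.0075, and rose from 41.9 TPM at PD2 to 511 TPM at PD14 after rRNA depletion and from 18.4 to 237 TPM after poly(A) enrichment (fitted log2 change 3.6 ± 0.12). Its partner C1ra rose from 28.98 to 347 TPM by rRNA depletion and 12.04 to 105 TPM by poly(A) (fitted log2 change 3.28 ± 0.16, adjusted p = 0.0125). C1rb, a paralogue of C1ra, was under 1 TPM in both PD2 libraries and rose from 0.916 to 52.2 TPM by rRNA depletion and 0.206 to 19.6 TPM by poly(A). These genes are neighbours: C1rl, C1ra, C1s1, C1rb and C1s2 lie side by side at chr6:124493113-124636085 (mm10), all 5 were called higher, and no longer run of called neighbours was found in the genome. C1ra and C1rb, and C1s1 and C1s2, are near copies, so reads may have been split among them.

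Downstream components rose too. C3, with the largest fitted change of the list, rose from 8.96 TPM at PD2 to 360.0 TPM at PD14 after rRNA depletion and from 3.7 to 107 TPM after poly(A) enrichment (fitted log2 change 4.85 ± 0.21, adjusted p = 0.0117). C4b, the classical-pathway component cleaved by C1s, rose from 4.31 to 68.7 TPM by rRNA depletion and 0.388 to 5.37 TPM by poly(A), and factor B (Cfb) rose from 1.21 to 26.3 TPM by rRNA depletion and 2.19 to 29.2 TPM by poly(A); exons of Cfb overlap those of Gm20547 on the same strand, so part of its signal is uncertain. Regulators that restrain the cascade were also higher: Serping1 (3.17), Clu (3.16), Cd59a (1.8), Cd55 (1.1) on the fitted log2 scale. Serping1, the inhibitor of C1r and C1s, rose from 35.5 to 357 TPM by rRNA depletion and 15.8 to 139 TPM by poly(A). The C1q chains, which recruit C1r and C1s and are made by macrophages, were counted as macrophage markers, not among the 23 complement genes. Their fitted changes were negative and none passed the threshold: C1qa (-1.62), C1qc (-1.43), C1qb (-1.19). C1qa was at 12.1 and 12.2 TPM at PD2 and 1.26 and 7.07 TPM at PD14. The part of the macrophage markers in the complement result was not tested; their summed level was lower at PD14 in the rRNA-depleted and higher in the poly(A) libraries, as given above.

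Many acute-phase and iron genes rose, and the gene of the transferrin receptor fell. Of 26 compared, 11 were called higher (42.3%, beside 6.55% of all genes) and 1 lower (3.85%, beside 4.88%). Apart from Lcn2, the rises covered the serum amyloid gene Saa3 (4.95), the metalloreductase Steap4 (4.44), the lipopolysaccharide-binding protein Lbp (4.12), the protease inhibitor Serpina3n (3.97), haptoglobin (Hp, 3.08), pentraxin 3 (Ptx3, 2.69) and ceruloplasmin (Cp, 2.62). Fth1, the ferritin heavy chain that stores iron, rose from 1176 to 2823 TPM by rRNA depletion and 1328 to 6278 TPM by poly(A) (fitted log2 change 1.75 ± 0.28, adjusted p = 0.0299). Tfrc, the transferrin receptor that takes iron up, fell from 64.5 TPM at PD2 to 14.8 TPM at PD14 after rRNA depletion and from 101 to 18.5 TPM after poly(A) enrichment (fitted log2 change -2.22 ± 0.15, adjusted p = 0.0125). Slc40a1, the iron exporter ferroportin, had 34.6 and 10.1 TPM at PD2 and 5.52 and 4.38 TPM at PD14 and was not called (adjusted p = 0.082). For Fth1 and Tfrc the PD2 and PD14 levels did not overlap.

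Genes from several steps of MHC class I antigen presentation rose. Of 24, 11 were called higher (45.8%, beside 6.55% of all genes) and 0 lower (beside 4.88%). In both methods 20 of the 24 were positive, a larger share than the 38.6% of all genes. Medians were 0.98 by rRNA depletion and 1.97 by poly(A) enrichment. The called genes ran from peptide production through transport and loading to the class I molecule: the immunoproteasome subunit Psmb8 (2.88), the peptide pumps Tap1 (1.8) and Tap2 (2.32), tapasin (Tapbp, 1.55), the trimming peptidase Erap1 (0.86), the heavy chains H2-D1 (2.41), H2-T23 (2.3), H2-K1 (2.11), H2-Q4 (2.0), H2-M3 (1.49) and the light chain B2m (1.6). B2m rose from 839 TPM at PD2 to 1741 TPM at PD14 after rRNA depletion and from 1241 to 5489 TPM after poly(A) enrichment (fitted log2 change 1.6 ± 0.29, adjusted p = 0.0347). H2-K1 rose from 45.8 to 153 TPM by rRNA depletion and 65.2 to 375 TPM by poly(A), and H2-D1 from 74.9 to 270.3 TPM by rRNA depletion and 83.8 to 667 TPM by poly(A). Tap1, Psmb8 and Tap2 are neighbours at chr17:34187553-34216321. Class I heavy chains are close copies, so single H2 values are uncertain. Nlrc5, the transactivator of these genes, was at 7.3 and 4.01 TPM at PD2 and 14.3 and 19.1 TPM at PD14 and was not called (adjusted p = 0.0507).

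Interferon-inducible GTPases and nucleic acid sensors rose in part, with larger medians by poly(A) than by rRNA depletion. GTPases of the IRG and GBP families attack the vacuoles of intracellular microbes. Of 17, 8 were called higher (47.1%, beside 6.55% of all genes) and 0 lower (beside 4.88%). Medians were 1.26 by rRNA depletion and 3.7 by poly(A) enrichment. Irgm2 rose from 6.6 to 31.7 TPM by rRNA depletion and 4.44 to 87.9 TPM by poly(A). Gbp5, Gbp7 and Gbp3 were called side by side at chr3:142493978-142573209, and Gbp3 rose from 3.27 to 19.5 TPM by rRNA depletion and 2.02 to 151 TPM by poly(A). Among 27 sensors and adaptors, 7 were called higher (25.9%, beside 6.55% of all genes) and 1 lower (3.7%, beside 4.88%). Medians were 0.64 by rRNA depletion and 1.91 by poly(A) enrichment. Sensors of double-stranded RNA were among the calls: Dhx58 (2.72), Ifih1 (2.08) and Tlr3 (1.92). Oas1b (2.4), of the oligoadenylate synthetase family, was called too. Ifih1, which encodes MDA5, rose from 6.76 to 17.2 TPM by rRNA depletion and 5.45 to 47.7 TPM by poly(A). Tmem173, which encodes the DNA-sensing adaptor STING, fell from 41.3 to 18.8 TPM by rRNA depletion and 52.96 to 30.2 TPM by poly(A) (fitted log2 change -0.94 ± 0.19, adjusted p = 0.0428).

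WNT modulators held some of the largest rises among signalling genes. WNT ligands bind Frizzled receptors; R-spondins amplify the signal and secreted Frizzled-related proteins bind the ligands. Of 52 pathway genes, 10 were called higher (19.2%, beside 6.55% of all genes) and 1 lower (1.92%, beside 4.88%). Rspo2 rose from 26.4 TPM at PD2 to 353 TPM at PD14 after rRNA depletion and from 3.23 to 39.7 TPM after poly(A) enrichment (fitted log2 change 3.48 ± 0.16, adjusted p = 0.0117). Rspo3 rose from 15.04 to 226 TPM by rRNA depletion and 13.8 to 69.02 TPM by poly(A) (fitted log2 change 3.03 ± 0.43, adjusted p = 0.0245). Sfrp2 rose from 49.2 to 1397 TPM by rRNA depletion and 24.9 to 186 TPM by poly(A) (fitted log2 change 3.83 ± 0.76, adjusted p = 0.0417). Its rRNA-depleted level at PD14 stood far above the other libraries. Sfrp1 rose from 73.4 to 233 TPM by rRNA depletion and 48.7 to 228 TPM by poly(A). The receptors Fzd8 (1.7), Fzd1 (1.15), Fzd5 (1.06), Fzd7 (0.84) were higher and Fzd6 (-1.18) was lower. Notum, a lipase that inactivates WNTs, rose from 1.1 to 4.63 TPM by rRNA depletion and 0.22 to 5.72 TPM by poly(A), and Dkk3 rose from 171 to 324 TPM by rRNA depletion and 80.97 to 285 TPM by poly(A). None of the WNT ligands in the list was called; Wnt2 was at 2.37 and 2.06 TPM at PD2 and 4.93 and 6.42 TPM at PD14 (adjusted p = 0.0572).

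Growth factors changed in both directions: of 59 genes, 10 were called higher (16.9%, beside 6.55% of all genes) and 4 lower (6.78%, beside 4.88%). Ligands for fibroblast, hepatocyte and vascular receptors were among the rises. Fgf7 rose from 97.9 to 372 TPM by rRNA depletion and 73.8 to 204 TPM by poly(A), Fgf10 from 13.6 to 40.4 TPM by rRNA depletion and 3.34 to 15.9 TPM by poly(A), and Hgf from 10.9 to 55.6 TPM by rRNA depletion and 8.46 to 26.7 TPM by poly(A). Vegfd (2.08), Igf1 (0.92), Nrg1 (1.02) and Angpt1 (1.26), a Tie2 ligand, were also called. Falls were seen for Fgf21, an endocrine factor that responds to metabolic stress, from 6.98 to 0.426 TPM by rRNA depletion and 8.02 to 0.159 TPM by poly(A) (fitted log2 change -2.72 ± 0.27, adjusted p = 0.0166), and for the placental growth factor Pgf (-1.32) and the VEGF receptors Kdr (-1.38) and Flt1 (-0.75). Igfbp2 went from 127 to 2734 TPM by rRNA depletion and 164 to 518 TPM by poly(A) without passing the threshold (adjusted p = 0.0834). Igf2, a fetal growth factor, was at 1749 and 307 TPM at PD2 and 432 and 33.6 TPM at PD14 (adjusted p = 0.125).

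Other signalling lists are given beside the 6.55% of all genes called higher and the 4.88% called lower. In the TGF-beta, BMP and activin pathway 9 of 52 were called higher (17.3%) and 0 lower, among them the ligands Gdf6 (1.69), Gdf10 (1.65), Bmp4 (1.09), Tgfb2 (1.0), the inhibitory Smad6 (1.75), and the BMP antagonists Nbl1 (1.38) and Chrd (1.12). Smad6 rose from 22.2 to 59.98 TPM by rRNA depletion and 9.33 to 43.5 TPM by poly(A). Of 56 guidance genes, which steer axons and vessels, 8 were called higher (14.3%) and 0 lower, led by Efna3 (2.11), Sema3b (1.65), Sema3f (1.57) and the receptor Robo2 (1.47). In the Notch and hedgehog lists 5 of 22 were higher (22.7%) and 0 lower: Notch3 (1.67), Gas1 (1.06), Cdon (0.79), Gli3 (0.55), Smo (0.52). Notch3 rose from 12.4 to 33.6 TPM by rRNA depletion and 9.18 to 38.8 TPM by poly(A). Hes1, a Notch target, was at 201 and 78.9 TPM at PD2 and 17.3 and 94.7 TPM at PD14, lower in one method and higher in the other.

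Vasoactive receptors changed in a mixed way. Of 39 genes, 6 were called higher (15.4%, beside 6.55% of all genes) and 4 lower (10.3%, beside 4.88%). The list's median of 0.07 became -0.08 with quantile normalization. Npr3, the clearance receptor for natriuretic peptides, rose from 10.6 to 187 TPM by rRNA depletion and 5.21 to 24.4 TPM by poly(A) (fitted log2 change 3.03 ± 0.57, adjusted p = 0.038). The angiotensin receptors Agtr1a and Agtr2 rose: Agtr1a from 5.17 to 71.98 TPM by rRNA depletion and 2.18 to 7.98 TPM by poly(A) and Agtr2 from 42.5 to 137 TPM by rRNA depletion and 17.8 to 73.2 TPM by poly(A). Hpgd, the enzyme that breaks prostaglandins down, rose from 7.93 to 45.1 TPM by rRNA depletion and 1.35 to 5.22 TPM by poly(A), as did Ptges (1.41), a prostaglandin E synthase. Ptgs2, the inducible cyclooxygenase, was at 121 and 88.9 TPM at PD2 and 5.93 and 95.3 TPM at PD14 and was not called (adjusted p = 0.256). F2rl1, the receptor PAR2 for trypsin-like proteases, fell from 4.97 to 0.366 TPM by rRNA depletion and 69.4 to 2.0 TPM by poly(A); the thrombin receptor F2r (-0.79) and the adenosine receptor Adora2b (-1.37) were also lower.

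Retinoid genes moved in both directions. Crabp1, which binds retinoic acid in the cytosol, fell from 646 TPM at PD2 to 38.2 TPM at PD14 after rRNA depletion and from 1393 to 144 TPM after poly(A) enrichment (fitted log2 change -3.65 ± 0.45, adjusted p = 0.0208). Rarres1, a retinoid-induced gene, rose from 5.9 to 75.6 TPM by rRNA depletion and 4.11 to 58.8 TPM by poly(A) (fitted log2 change 3.51 ± 0.25, adjusted p = 0.0143), and Rarres2, which encodes the chemoattractant chemerin, rose from 1.12 to 42.5 TPM by rRNA depletion and 2.55 to 9.85 TPM by poly(A). Aldh1a1, which oxidizes retinaldehyde, was higher (1.83), while Aldh1a2, of the same enzyme family, was at 5.85 and 10.8 TPM at PD2 and 0.513 and 6.15 TPM at PD14 and was not called. Cmklr1, a receptor for chemerin, fell from 13.2 to 2.91 TPM by rRNA depletion and 15.8 to 2.22 TPM by poly(A) (fitted log2 change -2.12 ± 0.24, adjusted p = 0.0199).

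Matrix genes rose in part. Of 35 collagen chains, 5 were called higher (14.3%, beside 6.55% of all genes) and 0 lower (beside 4.88%). Led in level by Col3a1, these rose; Col3a1 went from 2018 TPM at PD2 to 5681 TPM at PD14 after rRNA depletion and from 1045 to 2422 TPM after poly(A) enrichment (fitted log2 change 1.35 ± 0.19, adjusted p = 0.0244). The small leucine-rich proteoglycans, which space collagen fibrils, were higher for Prelp (3.53), Fmod (2.5), Lum (1.92), Dcn (1.72). Prelp rose from 27.2 to 239.7 TPM by rRNA depletion and 4.56 to 85.4 TPM by poly(A) (fitted log2 change 3.53 ± 0.35, adjusted p = 0.0166), Fmod from 80.9 to 587 TPM by rRNA depletion and 24.3 to 113 TPM by poly(A), and Lum from 149 to 835 TPM by rRNA depletion and 84.7 to 219 TPM by poly(A). Elastic fibre genes differed: the latent TGF-beta binding proteins Ltbp2 (1.54), Ltbp3 (1.4) were higher, Mfap4 was lower (-1.14), and elastin (Eln) was at 160.1 and 128 TPM at PD2 and 241 and 8.56 TPM at PD14 without a call (adjusted p = 0.318). In the matricellular list 3 of 27 were higher (11.1%, beside 6.55% of all genes) and 1 lower (3.7%, beside 4.88%). Wisp2 rose from 124 to 587 TPM by rRNA depletion and 60.8 to 817 TPM by poly(A). Its relative Wisp1 fell from 206 to 72.4 TPM by rRNA depletion and 344 to 197 TPM by poly(A).

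Cartilage and bone markers, some of which are matrix genes, summed higher at PD14 in both methods; their part in the matrix result was not tested. Protease genes rose in part. Among 32 ADAMTS proteases and matrix metalloproteinases, 9 were called higher (28.1%, beside 6.55% of all genes) and 1 lower (3.12%, beside 4.88%). Mmp2, a gelatinase, rose from 466 to 1193 TPM by rRNA depletion and 312 to 1008 TPM by poly(A). Mmp19 rose from 36.6 to 82.3 TPM by rRNA depletion and 28.04 to 111 TPM by poly(A). Mmp3 was at 61.9 and 69.7 TPM at PD2 and 189.8 and 2327 TPM at PD14, its poly(A) level at PD14 far above the rest, and was not called (adjusted p = 0.0577). Of 20 integrin subunits, 1 was called higher (5.0%, beside 6.55% of all genes) and 3 lower (15.0%, beside 4.88%). Itga1, a collagen-binding chain, rose from 15.2 to 91.4 TPM by rRNA depletion and 8.71 to 36.9 TPM by poly(A), while Itga4, Itga6 and Itgb3 were lower (-1.81, -1.66 and -1.24). Of 34 cadherin, protocadherin and gap junction genes, 5 were higher (14.7%, beside 6.55% of all genes) and 4 lower (11.8%, beside 4.88%). Gjb2, which encodes connexin 26, fell from 7.09 to 0.588 TPM by rRNA depletion and 26.7 to 0.576 TPM by poly(A) (fitted log2 change -3.24 ± 0.47, adjusted p = 0.0252). The laminin chain Lama1 was lower (-1.26) and Lamb2 higher (1.03). Pcdhgb1 rose from 9.24 to 49.3 TPM by rRNA depletion and 4.17 to 199 TPM by poly(A), but its exons overlap those of other genes of the Pcdhg cluster on the same strand, so the value cannot be assigned to it alone.

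Several clock genes rose. The circadian clock is a feedback loop in which PER proteins repress their own activators. Of 20 clock genes, 7 were called higher and 0 lower: Per3 (2.18), Dbp (1.52), Per2 (1.4), Tef (1.35), Rora (1.13), Nr1d1 (1.05), Nr1d2 (0.69). Per3 rose from 5.49 TPM at PD2 to 40.8 TPM at PD14 after rRNA depletion and from 3.0 to 11.7 TPM after poly(A) enrichment (fitted log2 change 2.18 ± 0.32, adjusted p = 0.0267). Dbp, a transcription factor whose RNA cycles daily, rose from 15.1 to 36.5 TPM by rRNA depletion and 9.29 to 35.5 TPM by poly(A). The activators Clock and Arntl were not called (0.15 and -0.66). The list's median was -0.05 by rRNA depletion and 0.26 by poly(A) enrichment.

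The Hox list had a share of calls near that of all genes. Of 36 Hox genes, 2 were called higher, Hoxd11 (0.85) and Hoxd13 (0.72), and 0 lower (5.56% higher, beside 6.55% of all genes); with quantile normalization 1 was higher and 1 lower, and the list's median moved from 0.06 to -0.10. Of 61 mesenchymal factors, 7 were higher (11.5%) and 2 lower (3.28%, beside 4.88% of all genes), with Prrx2 (1.85) and Ebf1 (1.58) the largest rises and Hic1 (-0.71), a transcriptional repressor, among the falls. Prrx2 rose from 109.6 to 245 TPM by rRNA depletion and 41.6 to 249 TPM by poly(A). Of 39 death-receptor, caspase and BCL2 genes, 3 were higher (7.69%) and 1 lower (2.56%), near the shares of all genes; the death receptor Fas rose from 32.2 to 81.8 TPM by rRNA depletion and 20.8 to 165 TPM by poly(A).

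Sterol and fatty acid synthesis had the largest share of called genes of the 49 lists examined. Of 40 genes, 32 were called lower (80.0%, beside 4.88% of all genes) and 0 higher (beside 6.55%). In both methods 36 of the 40 were negative, a larger share than the 31.3% of all genes. Only 3 of the 40 were positive in both, a smaller share than the 38.6% of all genes. Cells build cholesterol from acetyl-CoA through mevalonate and squalene, and SREBP transcription factors turn these genes on when sterols are scarce. The median change was -1.13 by rRNA depletion and -1.25 by poly(A) enrichment. Summed levels went from 6198 TPM at PD2 to 2599 TPM at PD14 after rRNA depletion and from 8621 to 3242 TPM after poly(A) enrichment. No gene of the list was called from the 4 PD2 and PD14 libraries alone or without the replicate block. The call count was 32 with quantile normalization and with mitochondrial and histone genes removed before rescaling, and 22 with no filter on low values. It was 31 without the rRNA-depleted PD2 library and 27 without the poly(A) one. Without the rRNA-depleted PD8 library it was 1, and without any one of the 3 remaining libraries 0, with list medians between -1.26 and -1.17.

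Enzymes from several stages were among the falls. At the entry to the mevalonate pathway, Hmgcs1 fell from 451 TPM at PD2 to 191 TPM at PD14 after rRNA depletion and from 645 to 175 TPM after poly(A) enrichment (fitted log2 change -1.56 ± 0.18, adjusted p = 0.02). Idi1, which isomerizes isopentenyl diphosphate, fell from 133 to 42.2 TPM by rRNA depletion and 257 to 53.4 TPM by poly(A) (fitted log2 change -1.94 ± 0.22, adjusted p = 0.02), and Fdps, which makes farnesyl diphosphate, from 383 to 101 TPM by rRNA depletion and 667 to 198 TPM by poly(A). Of the later sterol steps, Lss (-1.57), Cyp51 (-1.81) and Dhcr7 (-1.81) were lower. The desaturase Scd1 fell from 259 to 61.8 TPM by rRNA depletion and 258 to 68.3 TPM by poly(A) (fitted log2 change -1.98 ± 0.13, adjusted p = 0.0125), Scd2 from 977 to 277 TPM by rRNA depletion and 1264 to 401 TPM by poly(A), and Fasn, the fatty acid synthase, from 167 to 91.5 TPM by rRNA depletion and 194 to 81.00 TPM by poly(A). In all of these genes both PD14 libraries lay below both PD2 libraries.

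Regulator genes were also in the list. Srebf2, which encodes an SREBP transcription factor, fell from 134 to 77.02 TPM by rRNA depletion and 179 to 94.1 TPM by poly(A). Insig1, which holds SREBPs in the endoplasmic reticulum, fell from 238 to 111 TPM by rRNA depletion and 310.1 to 118 TPM by poly(A). Scap, the escort of SREBPs, was at 50.5 and 53.7 TPM at PD2 and 65.1 and 90.2 TPM at PD14, higher at PD14 in both methods but not called (adjusted p = 0.0688), and Srebf1 was at 48.7 and 57.9 TPM at PD2 and 46.1 and 46.3 TPM at PD14. Acat2 lies at chr17:12942890-12960747 in a run of called-lower neighbours with Tcp1 and Acat3, and its exons may share reads with the Acat3 copy.

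**Figure D3:**
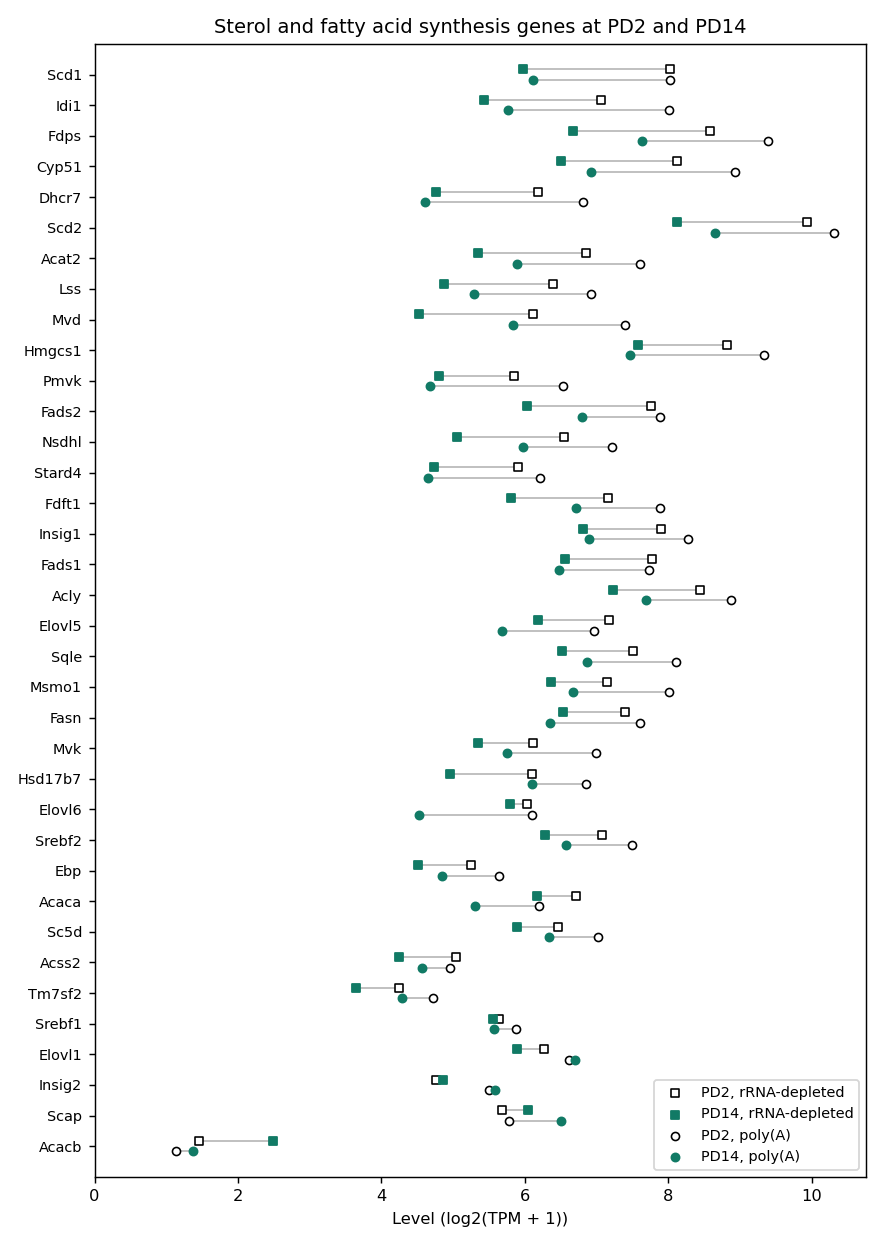
Levels of 36 of the 40 sterol and fatty acid synthesis genes as log2(TPM + 1) at PD2 (open) and PD14 (filled), squares for rRNA-depleted and circles for poly(A) libraries, ordered by fitted change. Filled symbols lie left of open ones for 32 of them in both methods; Scd1 is at the top, and Scap and Acacb at the bottom moved right.

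Lipid transport genes were divided. Of 43 genes for storage, transport and efflux, 6 were called higher (14.0%, beside 6.55% of all genes) and 6 lower (14.0%, beside 4.88%). Fabp5, a fatty-acid-binding protein, fell from 226 to 31.9 TPM by rRNA depletion and 293 to 108 TPM by poly(A), and Mfsd2a, a transporter of lysophospholipids, from 10.9 to 1.11 TPM by rRNA depletion and 22.6 to 3.2 TPM by poly(A) (fitted log2 change -2.49 ± 0.21, adjusted p = 0.0166). The HDL receptor Scarb1 (-1.34) and the acyl-CoA synthetases Acsl3 (-1.52) and Acsl4 (-1.12) were lower. Nr1h3, which encodes the oxysterol receptor LXR-alpha, rose from 1.87 to 6.57 TPM by rRNA depletion and 1.1 to 6.24 TPM by poly(A), and Pltp, a phospholipid transfer protein, from 43.7 to 126 TPM by rRNA depletion and 21.9 to 96.7 TPM by poly(A). Apod rose from 23.9 to 49.1 TPM by rRNA depletion and 10.6 to 50.7 TPM by poly(A). Apol9a and Apol9b were also called higher, but they are near copies, and single values are uncertain.

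Many chromosome segregation genes fell. Kinetochores fasten chromosomes to spindle microtubules. Of 46 kinetochore and centromere genes, 39 were negative in both methods, a larger share than the 31.3% of all genes. Medians were -0.77 by rRNA depletion and -1.39 by poly(A) enrichment. Of the 46, 20 were called lower (43.5%, beside 4.88% of all genes) and 0 higher (beside 6.55%). The count was 25 without the rRNA-depleted PD2 library, 6 without the poly(A) one and 0 without any one of the other 4 libraries. It was also 0 from the 4 libraries alone and without the replicate block, and 1 with no filter on low values. Ndc80, which binds the microtubule, fell from 29.3 TPM at PD2 to 12.01 TPM at PD14 after rRNA depletion and from 22.98 to 4.25 TPM after poly(A) enrichment. The checkpoint kinase Bub1 fell from 26.3 to 9.86 TPM by rRNA depletion and 23.7 to 4.02 TPM by poly(A) (fitted log2 change -1.81 ± 0.28, adjusted p = 0.0277), and the scaffold Knl1 from 19.3 to 8.34 TPM by rRNA depletion and 8.18 to 0.833 TPM by poly(A). Among 35 kinesins, 12 were called lower (34.3%, beside 4.88% of all genes) and 0 higher. The 12 were mostly mitotic motors: Kif15 (-2.01), Kif11 (-1.97), Kif20b (-1.91), Kif23 (-1.75), Kif4 (-1.74), Kif2c (-1.68) and 6 others. Kif11, which pushes spindle poles apart, fell from 41.4 to 13.4 TPM by rRNA depletion and 28.4 to 4.64 TPM by poly(A). Kif5a, a transport motor, was at 1.01 and 1.38 TPM at PD2 and 3.5 and 3.88 TPM at PD14 without a call. Of 26 cohesin and condensin genes, 10 were lower (38.5%, beside 4.88% of all genes) and 0 higher. Ncapg, a condensin subunit, fell from 30.3 to 11.2 TPM by rRNA depletion and 22.3 to 2.7 TPM by poly(A). Exons of Ncapg overlap those of Lcorl on the opposite strand.

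DNA supply and repair genes fell in part. Of 40 nucleotide and one-carbon genes, 14 were called lower and 1 higher, and 33 were negative in both methods. Thymidine kinase (Tk1) fell from 36.8 to 14.4 TPM by rRNA depletion and 52.6 to 16.4 TPM by poly(A) and the serine-pathway enzyme Psat1 from 201 to 69.6 TPM by rRNA depletion and 266 to 91.2 TPM by poly(A). Phgdh (-1.16), Shmt2 (-1.31) and the ribonucleotide reductase genes Rrm1 (-1.11) and Rrm2 (-0.96) were lower. Of 79 repair and checkpoint genes, 11 were lower (13.9%, beside 4.88% of all genes) and 1 higher (1.27%, beside 6.55%). In both methods 51 of the 79 were negative, a larger share than the 31.3% of all genes. Quantile normalization raised the count of genes called lower to 21. Rad51ap1 (-1.5), Clspn (-1.41) and Chek1 (-1.1) were among the 11, and Ercc5, a nucleotide-excision nuclease, was the higher one (0.82).

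Chromatin genes tied to replication were among the falls. Of 53 chromatin writers, readers and chaperones, 17 were called lower (32.1%, beside 4.88% of all genes) and 1 higher (1.89%, beside 6.55%). Uhrf1, which brings the maintenance methyltransferase to new DNA, fell from 54.1 TPM at PD2 to 15.5 TPM at PD14 after rRNA depletion and from 47.3 to 6.97 TPM after poly(A) enrichment (fitted log2 change -2.17 ± 0.26, adjusted p = 0.0206), and Dnmt1, that methyltransferase, from 76.3 to 39.9 TPM by rRNA depletion and 69.1 to 27.3 TPM by poly(A). Histone chaperones Asf1b (-1.62), Chaf1b (-1.58), Nasp (-1.37), Chaf1a (-0.98) and the helicase Hells (-1.55) were lower. Cbx6, a Polycomb reader, was the one called higher (0.78). Of 25 lamina, LINC and HMG genes, 7 were lower (28.0%, beside 4.88% of all genes) and 0 higher. Hmga1, an architectural protein of chromatin, fell from 166 to 33.2 TPM by rRNA depletion and 293 to 91.4 TPM by poly(A) (fitted log2 change -1.98 ± 0.21, adjusted p = 0.0183), Hmga2 from 393 to 136 TPM by rRNA depletion and 492 to 183 TPM by poly(A), and the lamin B receptor Lbr from 48.2 to 29.4 TPM by rRNA depletion and 42.6 to 13.5 TPM by poly(A).

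Most genes for making ribosomes were lower in both methods, with small changes. Of 66 genes of ribosome biogenesis and RNA polymerase I, 16 were called lower (24.2%, beside 4.88% of all genes) and 0 higher (beside 6.55%). In both methods 59 of the 66 were negative, a larger share than the 31.3% of all genes. None was positive in both, beside 38.6% of all genes. Medians were -0.44 by rRNA depletion and -0.63 by poly(A) enrichment. Nucleophosmin (Npm1) fell from 1149.9 TPM at PD2 to 692 TPM at PD14 after rRNA depletion and from 1590.5 to 643 TPM after poly(A) enrichment (fitted log2 change -1.02 ± 0.18, adjusted p = 0.0349), nucleolin (Ncl) from 269 to 168 TPM by rRNA depletion and 323 to 127 TPM by poly(A), and fibrillarin (Fbl) from 89.3 to 53.1 TPM by rRNA depletion and 179 to 79.2 TPM by poly(A). Of 81 cytosolic ribosomal protein genes, 68 were negative in both methods, a larger share than the 31.3% of all genes. Only Rpsa (-0.74) and Rpl36a (-0.61) were called, both lower (2.47%, beside 4.88% of all genes). The medians were -0.44 by rRNA depletion and -0.29 by poly(A) enrichment. Ribosomal protein genes have many processed pseudogenes, so their single values are uncertain. Of 37 aminoacyl-tRNA synthetases, which charge tRNAs, 10 were called lower (27.0%, beside 4.88% of all genes) and 0 higher. The 10 were Nars (-0.81), Sars (-0.8), Wars (-0.79), Rars (-0.74), Iars (-0.7), Eprs (-0.66), Tars (-0.65), Lars (-0.63), Aars (-0.6), Kars (-0.54). All 10 serve cytosolic translation, and Kars also encodes the mitochondrial enzyme. Nars fell from 323 to 197 TPM by rRNA depletion and 516 to 275 TPM by poly(A).

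Among nuclear transport genes, 11 of 55 were called lower and 0 higher, and 44 were negative in both methods. Kpna2, an importin alpha, fell from 151 to 59.95 TPM by rRNA depletion and 275 to 118 TPM by poly(A), and the GTPase Ran, which sets the direction of transport, from 289 to 137 TPM by rRNA depletion and 514 to 287 TPM by poly(A) (fitted log2 change -0.96 ± 0.13, adjusted p = 0.0245). The importins Ipo5 (-0.85), Ipo7 (-0.88) and Kpnb1 (-0.57) were lower too. Of 59 splicing factors, 4 were lower (6.78%, near the 4.88% of all genes) and 1 higher, the largest fall being Hnrnpa1, from 787 to 401 TPM by rRNA depletion and 771 to 241 TPM by poly(A). Among 36 chaperones, 6 were lower (16.7%, beside 4.88% of all genes) and 1 higher (2.78%, beside 6.55%). Hspd1 and Hspe1, which form the mitochondrial folding chamber, fell by 1.08 and 0.81 on the log2 scale. Of 28 amino acid transporters, 5 were lower (17.9%, beside 4.88% of all genes) and 2 higher (7.14%, beside 6.55%). Slc7a5, which carries large neutral amino acids, fell from 132 to 69.8 TPM by rRNA depletion and 178 to 55.5 TPM by poly(A), Slc38a1 from 74.7 to 11.4 TPM by rRNA depletion and 77.9 to 21.98 TPM by poly(A) (fitted log2 change -2.19 ± 0.26, adjusted p = 0.0206), and Slc7a2, a carrier of cationic amino acids, rose from 32.8 to 104 TPM by rRNA depletion and 9.74 to 49.1 TPM by poly(A). Bcat1, which transaminates branched-chain amino acids, fell from 119 to 18.6 TPM by rRNA depletion and 169.7 to 50.01 TPM by poly(A) (fitted log2 change -2.18 ± 0.22, adjusted p = 0.0181).

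Several cytoskeletal genes that mark other lineages fell. Of 13 intermediate filament genes, 5 were called lower (38.5%, beside 4.88% of all genes) and 0 higher. Desmin (Des), the muscle filament, fell from 33.5 TPM at PD2 to 1.19 TPM at PD14 after rRNA depletion and from 48.5 to 2.13 TPM after poly(A) enrichment (fitted log2 change -3.98 ± 0.28, adjusted p = 0.0134), equally in both methods. Nestin (Nes), of progenitor cells, fell from 19.6 to 4.96 TPM by rRNA depletion and 38.7 to 4.98 TPM by poly(A), and the simple-epithelial keratins Krt18 from 6.53 to 0.361 TPM by rRNA depletion and 5.97 to 0.349 TPM by poly(A) and Krt19 from 13.4 to 4.16 TPM by rRNA depletion and 28.5 to 1.76 TPM by poly(A). Neural and glial markers (8 of 14 among the genes compared) summed from 135 TPM at PD2 to 190.1 TPM at PD14 after rRNA depletion and from 242 to 178 TPM after poly(A) enrichment. Of the 8, 2 were called lower (25.0%, beside 4.88% of all genes), Nes and Gap43, and 1 was called higher (12.5%, beside 6.55%). The filament genes belong to the muscle, neural and epithelial marker lists; other genes of those lists fell too, such as Acta1 (-1.79) and Gap43 (-2.18), and their part in the result was not tested. Of 16 tubulins, 3 were called lower (18.8%, beside 4.88% of all genes): Tubb6 (-1.2), Tubb2b (-1.13), Tubb5 (-0.63). Ankrd1, a stretch-responsive gene, fell from 19.3 to 1.25 TPM by rRNA depletion and 112 to 48.5 TPM by poly(A); and Acta2, smooth-muscle actin, was at 2119.9 and 6119 TPM at PD2 and 798 and 2885 TPM at PD14 (adjusted p = 0.0562).

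**Figure D4:**
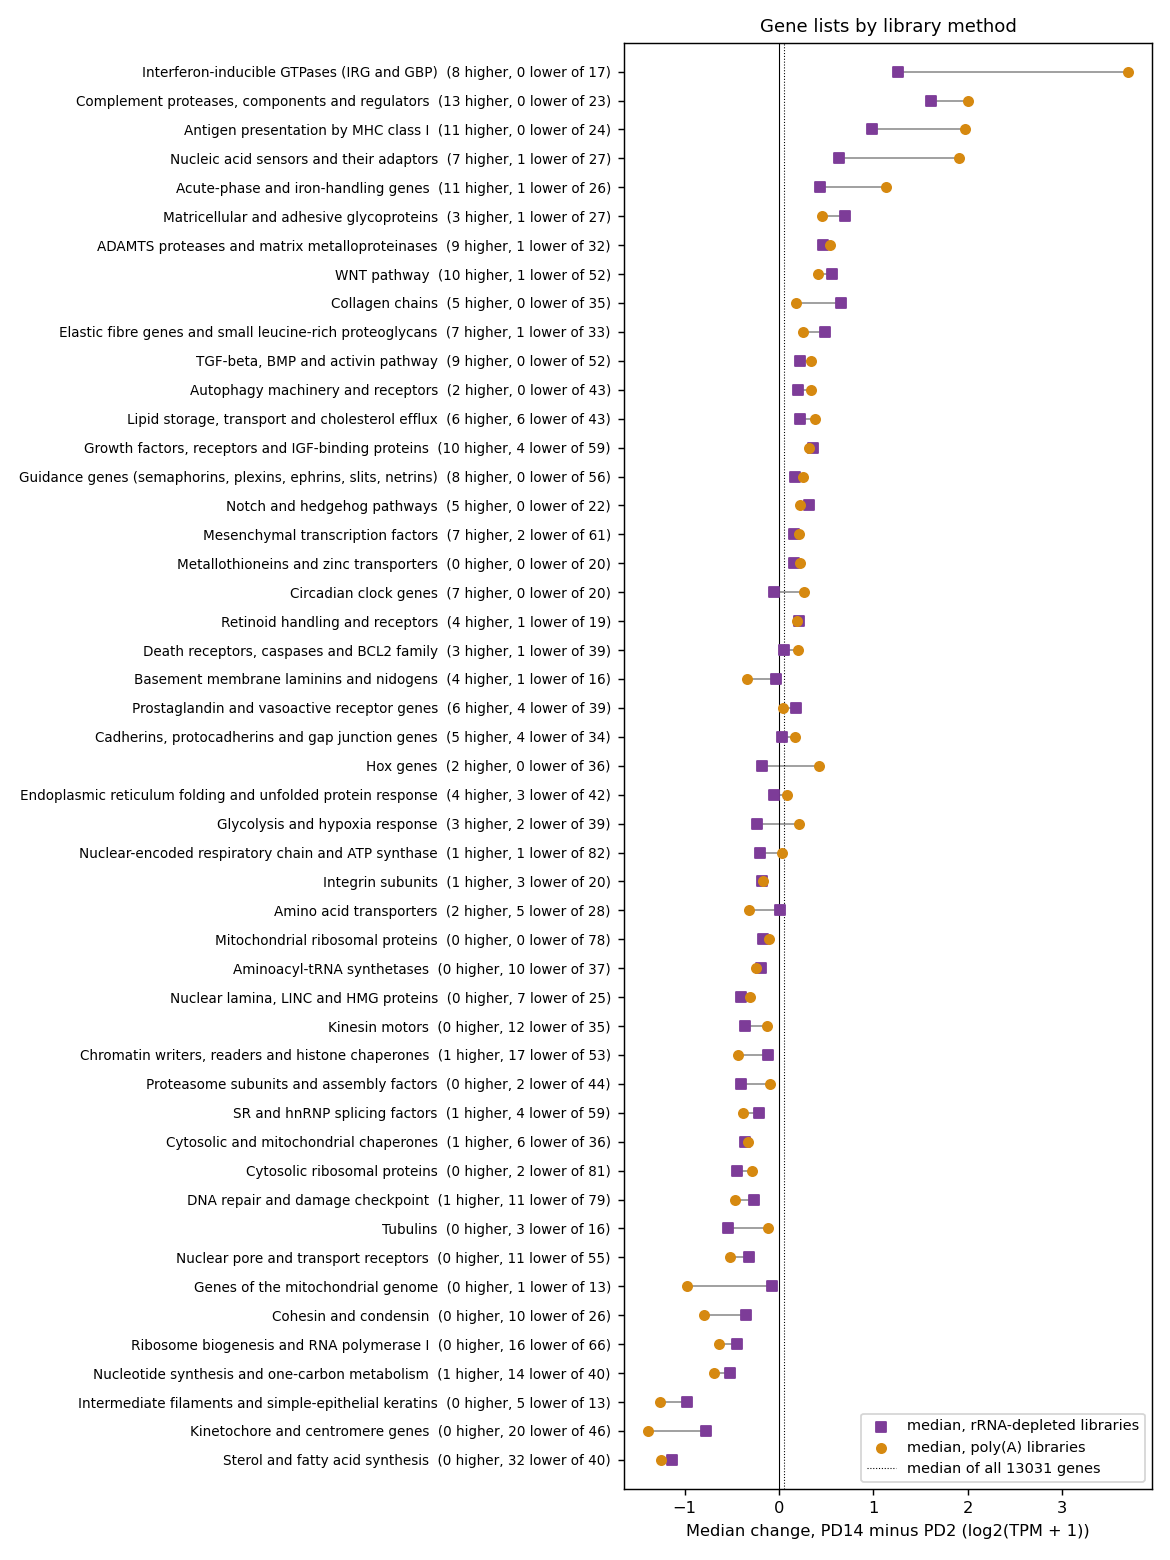
Median change in log2(TPM + 1) from PD2 to PD14 for each of 49 gene lists, in rRNA-depleted (squares) and poly(A) libraries (circles), with the genes called in each direction in brackets. Sterol and fatty acid synthesis is at the bottom with medians of -1.13 by rRNA depletion and -1.25 by poly(A) enrichment, and the IRG and GBP list at the top has its poly(A) median of 3.7 far right of its rRNA-depleted median of 1.26.

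Ranked by the gain in TPM averaged over both methods, the ferritin gene Fth1 came first and Penk next, followed by Postn, B2m and Col3a1. Penk, which encodes proenkephalin, rose from 247 TPM at PD2 to 6283 TPM at PD14 after rRNA depletion and from 17.2 to 225 TPM after poly(A) enrichment (fitted log2 change 4.15 ± 0.39, adjusted p = 0.0166); its rRNA-depleted level was far above its poly(A) level in each group. Postn, a matricellular protein, went from 1391 to 5859.9 TPM by rRNA depletion and 2549 to 3457 TPM by poly(A) and was not called (adjusted p = 0.127). Sparc, Bgn, Thbs1 and Fn1, all abundant matrix genes, were also higher in both methods without a call; Bgn went from 2391 to 3714 TPM by rRNA depletion and 2572 to 5328 TPM by poly(A) (adjusted p = 0.0627). Of the 10 largest losses, 6 were genes of the mitochondrial genome. The 13 mitochondrial genes summed from 63953 TPM at PD2 to 56218 TPM at PD14 after rRNA depletion and from 67389.7 to 30421 TPM after poly(A) enrichment. Of the 13, 0 were called higher and 1 lower (7.69%, beside 4.88% of all genes). mt-Atp6 fell from 6592 to 1223 TPM by rRNA depletion and 6694 to 367 TPM by poly(A) (fitted log2 change -3.31 ± 0.73, adjusted p = 0.0497), while mt-Co1 was at 11558 and 13027 TPM at PD2 and 11033 and 8576 TPM at PD14. mt-Atp6 and mt-Atp8 share bases on the same strand, so their values are not separate. Lgals1, Tpt1 and Eef1a1 were lower in both methods without a call; Lgals1 went from 3179.8 to 2038 TPM by rRNA depletion and 5475 to 2806 TPM by poly(A).

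Promoters of the called genes were read in windows of 300 bases, from 250 before to 50 after each transcription start, taken from RefSeq on GRCm38.p6. Of the genes compared, 9898 had a window (12730 in all), as did 654 of the higher and 477 of the lower calls. Motifs were searched on both strands. The interferon-response element (ISRE) was written as GAAA, any 2 bases, GAAA. The C/EBP site was TTGCNNAA, the cell cycle homology region (CHR) TTTGAA, and the E2F site any of TTTCCCGC, TTTGGCGC, TTTCGCGC and TTTGCCGC. The NF-Y box was CCAAT and the AP-1 site TGANTCA. The kappaB site was GGGAN followed by TTTCC or TTCCC. Sites of different motifs were allowed to overlap. A match describes letters and is neither a bound site nor a cause.

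Shares of windows with a match differed between the called groups. An ISRE was in 6.63% of windows of higher genes, 3.14% of lower genes, 3.05% of all genes compared and 3.44% of all windows in the reference. C/EBP sites were in 12.6% of windows of higher genes, 5.57% of lower genes, 8.29% of all genes compared and 10.8% of all windows in the reference. The E2F site was in 1.6% of windows of higher genes, 9.23% of lower genes, 3.79% of all genes compared and 2.26% of all windows in the reference, and the CHR in 10.9% of windows of higher genes, 18.5% of lower genes, 12.1% of all genes compared and 17.9% of all windows in the reference. For the NF-Y box the shares were 36%, 44.4%, 37.7% and 37.4% in that order, for AP-1 7.77%, 4.36%, 5.21% and 7.81%, and for kappaB 1.37%, 0.523%, 0.911% and 0.767%. Base composition moved with the groups: the median GC content was 59.7% for higher, 62% for lower and 60.7% for all genes compared, with medians of 15, 22 and 20 CpG per window. Its part in the motif shares was not tested.

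**Figure D5:**
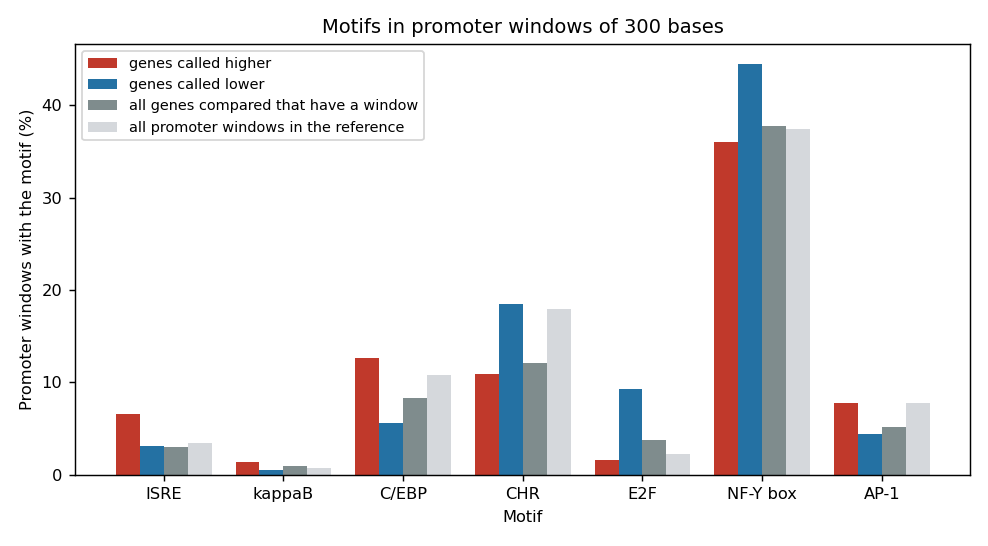
Share of promoter windows that hold each motif (y axis, percent) for genes called higher, genes called lower, all genes compared that have a window, and all windows in the reference. The E2F bar is highest for lower genes, 9.23% against 1.6% for higher genes, and the ISRE bar is highest for higher genes, 6.63% against 3.14%.

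Stretches around the match nearest the start show these letters in genes with large rises. In the lines below the match is in capitals, each stretch runs 5′ to 3′ on the gene's strand, and the coordinates are GRCm38. The ISRE stretches come from 3 interferon-induced genes and Saa3; their positions, strands and distances from the match to the start are Isg15 (chr4:156200862-156200897, minus strand, 56 bases), Ifit1 (chr19:34640791-34640826, plus strand, 75 bases), Ifit3b (chr19:34607790-34607825, plus strand, 144 bases) and Saa3 (chr7:46715779-46715814, minus strand, 115 bases). Isg15, a ubiquitin-like modifier, went from 12.6 to 51.2 TPM by rRNA depletion and 25.5 to 986 TPM by poly(A). The Ifit1 and Ifit3b matches have the same letters and read on the reverse strand.
Isg15: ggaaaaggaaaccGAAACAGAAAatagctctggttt
Ifit1: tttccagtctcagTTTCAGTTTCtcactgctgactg
Ifit3b: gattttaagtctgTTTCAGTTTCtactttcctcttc
Saa3: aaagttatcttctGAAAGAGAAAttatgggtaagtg

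C/EBP stretches are shown for 6 of the strongest rises among acute-phase, complement and WNT genes: Lcn2 (chr2:32387935-32387968, minus strand, 208 bases), C3 (chr17:57228161-57228194, minus strand, 37 bases), Steap4 (chr5:7960372-7960405, plus strand, 79 bases), C1rb (chr6:124570282-124570315, plus strand, 127 bases), Saa3 (chr7:46715755-46715788, minus strand, 91 bases) and Sfrp2 (chr3:83766263-83766296, plus strand, 37 bases). C3 and Steap4 have the same letters in the match, as have C1rb and Saa3.
Lcn2: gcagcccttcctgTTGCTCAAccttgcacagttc
C3: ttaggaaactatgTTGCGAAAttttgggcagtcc
Steap4: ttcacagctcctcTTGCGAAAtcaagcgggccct
C1rb: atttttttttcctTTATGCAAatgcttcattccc
Saa3: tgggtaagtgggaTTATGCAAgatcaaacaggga
Sfrp2: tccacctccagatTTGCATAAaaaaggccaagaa

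CHR stretches are shown for 4 mitotic genes that fell: Kif15 (chr9:122951049-122951080, plus strand, 13 bases), Kif11 (chr19:37376350-37376381, plus strand, 13 bases), Ncapg (chr5:45669882-45669913, plus strand, 24 bases) and Mki67 (chr7:135716459-135716490, minus strand, 92 bases). In Kif15 an E2F match on the reverse strand ends where the CHR begins, so the last line repeats that promoter with the E2F letters in capitals. The stretches were picked by gene: among the largest rises and falls, CHR matches were also in Cxcl15, C1ra, Islr and Phf11d, all called higher, and C/EBP matches in Islr, called higher, and Depdc1a, called lower.
Kif15: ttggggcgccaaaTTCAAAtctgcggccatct
Kif11: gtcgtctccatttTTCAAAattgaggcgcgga
Ncapg: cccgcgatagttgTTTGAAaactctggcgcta
Mki67: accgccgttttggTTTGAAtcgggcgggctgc
Kif15: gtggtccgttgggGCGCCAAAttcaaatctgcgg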

How the data were processed

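RNA was measured in 6 libraries of mouse embryonic fibroblasts, 2 each at PD2, PD8 and PD14. The authors deposited TPM, gene levels scaled per library, for 21988 gene symbols. Listed TPM summed to 1000000 in each poly(A) library and to between 937217 and 950531 in the rRNA-depleted ones. TPM carry no read numbers, so depth is unknown. The submitters' processing notes name bcl2fastq, cutadapt 1.14, HISAT2 2.0.5, StringTie 1.3.1c and mm10; the annotation is not given in the sources used here.

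Values were analysed as log2(TPM + 1), which understates changes of low genes, with limma 3.58.1 in R 4.3.3. The fit used 6 libraries, a term per group, replicate number (library method) as a block and a mean-variance trend; 2 residual degrees of freedom remained, with 3.22 from the prior. Genes at 1 TPM or more in at least 2 of 6 libraries were tested (13332), with two-sided p-values adjusted by Benjamini-Hochberg and a threshold of 0.05. Another 301 tested genes did not meet the 4-library filter, and 0 of them were called. The pairing comes from the labels, which give each number its library method; same-numbered libraries deviated together from their group means (r = 0.75, 0.66 and 0.85 across genes for the 3 pairs of groups). P-values measure only the spread between these samples, which may be technical.

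Members, 49 gene lists and 9 marker lists were chosen with earlier results of these data known. Genes named were the 35 largest called rises and 35 falls with a mean of at least 5 TPM, same sign in both methods and not predicted, small RNA, mitochondrial or histone genes; the 4 largest called changes of each list, or 2 uncalled; the 10 largest gains and losses in TPM; and 8 genes of opposite change. Others in the lists were named after their values were seen, as were the pathway partners with no call. Positions came from GENCODE M21 (mm10), which matched 12755 of the 13031 symbols. Some genes counted in the lists are not reported by name here. Alternatives covered the pseudocount, filter, scaling, block, trend and each library left out.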

Additional observations from a re-analysis of the deposited data

Results flagged for a closer look

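In the 8 genes below the rRNA-depleted and poly(A) libraries moved in opposite directions by at least 1 on the log2(TPM + 1) scale, which is what set them apart. The difference between methods was not tested, since each method has 1 library per group. In all, 62 of the genes compared did so, 52 of them lower in rRNA-depleted and higher in poly(A) libraries. Cck, which encodes cholecystokinin, changed by -2.39 in rRNA-depleted and by 4.12 in poly(A) libraries, with 12.1 and 18.99 TPM at PD2 and 1.51 and 347 TPM at PD14. Mmp13, a collagenase, changed by -2.36 in rRNA-depleted and by 3.79 in poly(A) libraries, with 62.5 and 11.6 TPM at PD2 and 11.4 and 173 TPM at PD14. Prg4, which encodes lubricin, changed by -1.89 in rRNA-depleted and by 2.16 in poly(A) libraries, with 27.1 and 10.3 TPM at PD2 and 6.61 and 49.5 TPM at PD14. Ccl3, a chemokine listed at 0 in the rRNA-depleted PD14 library, changed by -1.85 in rRNA-depleted and by 2.13 in poly(A) libraries, with 2.59 and 1.71 TPM at PD2 and 0 and 10.9 TPM at PD14. Thbs4, a thrombospondin, changed by 2.97 in rRNA-depleted and by -1.83 in poly(A) libraries, with 17.3 and 6.31 TPM at PD2 and 142 and 1.05 TPM at PD14. Ctla2a changed by -1.86 in rRNA-depleted and by 1.72 in poly(A) libraries, with 14.2 and 58.7 TPM at PD2 and 3.19 and 196 TPM at PD14. Hist2h3b, a replication-dependent histone gene, changed by -2.07 in rRNA-depleted and by 1.89 in poly(A) libraries, with 239 and 4.69 TPM at PD2 and 56.1 and 20.05 TPM at PD14. Hist2h3c2, another, changed by -1.65 in rRNA-depleted and by 2.31 in poly(A) libraries, with 119 and 8.72 TPM at PD2 and 37.1 and 47.2 TPM at PD14.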

How the results depend on the processing

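Counts of called genes stayed within 1.5 times 854 higher and 636 lower with either pseudocount, with the filter on the 4 libraries, and under both rescalings. They moved to 226 and 166 with no filter on low values, to 540 and 398 with no mean-variance trend, and to 18 and 2 from the 4 libraries only. Without the replicate block, limma called 0 and 0, with 912 and 603 genes at an unadjusted p of at most 0.05. Leaving out one library gave 0 to 1158 higher and 0 to 612 lower calls. With a library left out, the lone sample of its group is assumed to vary like the other groups. Fits with fewer libraries have fewer residual degrees of freedom. Counts also differed with which library was left out, and the cause was not tested. Every main call kept its direction with either pseudocount and under both rescalings, except 1 lower call that was not fitted after rescaling. The filter, block, trend and 4-library settings leave the fitted change itself unaltered. Direction could therefore not differ in them. Genes with a log2 change of at least 1 in both methods moved from 502 to 259 higher and from 339 to 152 lower with a pseudocount of 5. Reversals among the genes checked one by one were confined to the genes of opposite change. Those checked were the genes named by rule and the called genes of the lists. Uncalled partners such as Hes1, Ptgs2 and Eln were left out. The value was -1.08 for Ccl3 with a pseudocount of 0.1, 0.21 for Ctla2a with one of 5, and -0.07 for Prg4 with quantile normalization. With one library left out, the ranges of the fitted log2 change were -1.62 to 3.36 for Cck, -2.02 to 3.45 for Mmp13, -1.75 to 1.57 for Hist2h3b, -1.71 to 1.99 for Prg4, -1.78 to 2.06 for Ccl3, -1.89 to 3.03 for Thbs4, -1.43 to 1.3 for Ctla2a, -1.33 to 1.99 for Hist2h3c2. Depth is unknown, so counting error could not be given.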

Other observations

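Several housekeeping lists had few or no calls. Of 78 mitochondrial ribosomal protein genes 0 were called in either direction, with medians of -0.17 by rRNA depletion and -0.11 by poly(A) enrichment. Among 82 nuclear genes of the respiratory chain, cytochrome c (Cycs, -0.85) was called lower and the testis-type subunit Cox6b2 (2.11) higher. Of 44 proteasome genes 2 were lower, Psmd8 (-0.69) and Psmd14 (-0.6), or 4.55% beside 4.88% of all genes. In both methods 31 of the 44 were negative, a larger share than the 4074 of all 13031 genes (31.3%). Of 43 autophagy genes 26 were positive in both methods, a larger share than the 5035 of all 13031 genes (38.6%). Atg7 (0.96), an activating enzyme of the pathway, and Calcoco1 (0.72), a receptor, were called higher. That share of 4.65% was below the 6.55% of all genes. Metallothioneins and zinc transporters gave 0 calls of 20. Among other marker lists, smooth muscle and pericyte genes (9 of 10 compared) summed from 3154 TPM at PD2 to 1349 TPM at PD14 after rRNA depletion and from 9545 to 4657 TPM after poly(A) enrichment, and cartilage and bone genes (10 of 16) from 289 TPM at PD2 to 942 TPM at PD14 after rRNA depletion and from 59.8 to 157 TPM after poly(A) enrichment, with Matn4 (2.4) and Bglap2 (1.35) called higher.

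In the hypoxia and glycolysis list 3 of 39 were called higher (7.69%) and 2 lower (5.13%), near the 6.55% and 4.88% of all genes. Epas1, which encodes HIF-2 alpha, rose from 6.91 to 38.5 TPM by rRNA depletion and 4.0 to 11.5 TPM by poly(A). Adrenomedullin (Adm) rose from 52.9 to 162 TPM by rRNA depletion and 39.5 to 154 TPM by poly(A). Gapdh, often used as a reference gene, fell from 613 to 284 TPM by rRNA depletion and 798 to 499 TPM by poly(A). The fitted log2 change of Gapdh was -0.89 ± 0.15 (limma, adjusted p = 0.0333). In the endoplasmic reticulum list 4 of 42 were called higher (9.52%, beside 6.55% of all genes) and 3 lower (7.14%, beside 4.88%). The prolyl isomerases Fkbp7 (1.11), Fkbp9 (0.81), Fkbp14 (0.76), Fkbp11 (0.7) were higher. Fkbp10 (-0.54) was lower, together with the stress genes Trib3 (-1.03) and Asns (-0.86). Further runs of called neighbours in 1 direction included Scara3, Clu, Ephx2 and Ptk2b at chr14:65919394-66281052 and Ifitm2, Ifitm1 and Ifitm3 at chr7:140954837-141010770, all higher.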
